A study of Mus musculus with 8 samples.

Results

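The forkhead transcription factors were examined in H3K27-me3 ChIP-seq peak lists from fasted mouse liver. The members are 40 genes named Foxa1 to Foxs1 in the GENCODE annotation of the mouse genome (mm10), out of 21938 protein-coding genes. They were chosen by gene name and not by any measured value, though with earlier results of these data known, and all 40 were found. The family and its subfamilies here mean these 40 genes, and no other forkhead gene was examined. In the study, 8-week-old male C57BL/6 mice with floxed JMJD3 alleles received AAV-TBG-Cre, in which the TBG promoter restricts Cre to hepatocytes, or the control virus AAV-GFP, and the livers were taken 12 weeks later after a 16 h fast. The control mice carried the same floxed alleles, so the groups differ in the virus. For each virus, 2 H3K27-me3 libraries and 2 input libraries were made, and each deposited list pools both H3K27-me3 libraries of its virus. There is therefore 1 list per group, with no replicate value behind any number given here, and no test between groups was possible. The material, named primary liver cells in the labels, was minced liver tissue, which also holds endothelial, stellate, Kupffer and bile duct cells, in which TBG is not active.

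H3K27-me3 is the histone mark placed by the Polycomb complex PRC2, and it lies over developmental genes that a cell keeps silent. JMJD3, encoded by Kdm6b, and UTX remove it. Forkhead factors share a winged-helix DNA-binding domain, and their genes are scattered over the genome with a few short clusters. FOXA1, FOXA2 and FOXA3 are pioneer factors that open liver-specific enhancers, FOXO1 and FOXO3 drive fasting genes until insulin excludes them from the nucleus, and many of the others pattern embryonic tissues such as the eye, kidney, neural crest, lung and thyroid.

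The sequences that bear most directly on where the mark lay are the CpG-rich starts of the genes, since in mammals Polycomb is found mainly at CpG islands. The 200 bases before the RefSeq start site (GRCm38.p6, the same coordinates as mm10) are shown for 6 of the 26 members found in the RefSeq promoter table: Foxd3 and Foxc1, which were marked in both lists, Foxo1 and Foxa3, which were not marked, and Foxi1 and Foxn1, which are not in the liver-expressed class and had no peak within 1 kb. Each is written 5′ to 3′ along the strand of the gene, with every CpG in capitals.
Foxd3, chr4:99656099-99656298, plus strand: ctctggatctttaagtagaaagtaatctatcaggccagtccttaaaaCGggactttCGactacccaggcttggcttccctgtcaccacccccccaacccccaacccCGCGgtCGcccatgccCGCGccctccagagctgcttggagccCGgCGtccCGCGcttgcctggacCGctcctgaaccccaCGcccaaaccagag
Foxc1, chr13:31806446-31806645, plus strand: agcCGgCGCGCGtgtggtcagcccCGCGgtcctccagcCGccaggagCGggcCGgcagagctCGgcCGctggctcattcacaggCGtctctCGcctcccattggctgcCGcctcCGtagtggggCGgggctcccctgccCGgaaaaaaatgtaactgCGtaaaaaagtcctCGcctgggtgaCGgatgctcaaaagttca
Foxo1, chr3:52268137-52268336, plus strand: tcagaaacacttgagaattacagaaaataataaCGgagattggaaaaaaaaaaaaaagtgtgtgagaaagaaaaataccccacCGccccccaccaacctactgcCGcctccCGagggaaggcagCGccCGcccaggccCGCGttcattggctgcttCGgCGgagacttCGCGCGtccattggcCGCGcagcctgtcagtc
Foxa3, chr7:19023540-19023739, minus strand: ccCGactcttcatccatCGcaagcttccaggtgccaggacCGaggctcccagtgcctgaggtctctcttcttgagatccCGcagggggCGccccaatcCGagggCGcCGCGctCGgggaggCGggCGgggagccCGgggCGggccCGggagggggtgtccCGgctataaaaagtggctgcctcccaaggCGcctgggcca
Foxi1, chr11:34208090-34208289, minus strand: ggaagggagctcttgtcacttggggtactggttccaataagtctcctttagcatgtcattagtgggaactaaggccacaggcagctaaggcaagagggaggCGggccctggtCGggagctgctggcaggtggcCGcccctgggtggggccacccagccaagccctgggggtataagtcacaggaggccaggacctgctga
Foxn1, chr11:78386609-78386808, minus strand: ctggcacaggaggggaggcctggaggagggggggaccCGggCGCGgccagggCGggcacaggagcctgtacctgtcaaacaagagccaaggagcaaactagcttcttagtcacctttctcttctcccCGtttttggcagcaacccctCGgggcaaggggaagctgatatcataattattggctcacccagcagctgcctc

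These windows hold 13 CpGs at Foxd3 and 20 at Foxc1, against 15 at Foxo1 and 17 at Foxa3. The marked and the unmarked genes of these 4 are thus alike in being dense in CpG. Foxi1 has 3 CpGs and Foxn1 has 6. Over 32851 RefSeq start sites the same window held a median of 5 CpGs, and 89.4% held at least 1. The forkhead motif TGTTTAC, searched on both strands, occurs in none of the 6 windows and in 2.51% of all the RefSeq windows. A missing match says only that these letters are not in this window.

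The lists differed in extent over the whole genome. AAV-Cre had 59267 peaks covering 73.7 Mb and AAV-GFP 34586 peaks covering 14.9 Mb, which is 4.93 times as many bases in AAV-Cre. The median peak was 753 bp wide in AAV-Cre and 231 bp in AAV-GFP, and a q-value at or under 0.05 was reached by 88.6% and 46.8% of peaks. No AAV-Cre peak was shorter than 300 bp and no AAV-GFP peak shorter than 120 bp, so the calls were not made at the same resolution. A longer or additional peak in AAV-Cre cannot be told apart from a difference in how the peaks were called. The read depth of the libraries is unknown from the lists. In bulk tissue, a mark in fewer cells and less of the mark in each cell cannot be told apart either. The lists do not show whether Kdm6b was deleted.

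Forkhead genes carried the mark in a larger share than protein-coding genes as a whole, in both lists and in all windows examined. Within 1 kb of a start site, 22 of the 40 members (55%) had a peak in AAV-Cre, where 23.9% of all protein-coding genes had one, and 20 (50%) had a peak in AAV-GFP, where the share over all genes was 16.6%. The 20 members marked in AAV-GFP were all marked in AAV-Cre. Foxp2 and Foxs1 had a peak within 1 kb in AAV-Cre only, a state found in 7.62% of all genes, and no member had one in AAV-GFP only. In the wider window of 15 kb, 28 members (70%) had a peak in AAV-Cre against 41.5% of all genes, and 25 (62.5%) in AAV-GFP against 27.9%. Foxa2, Foxn1 and Foxp1 had a peak within 15 kb in AAV-Cre only, the state of 14.8% of all genes, and 0 members had one in AAV-GFP only, the state of 1.22%. Over the gene bodies, 24 members (60%) had a peak in AAV-Cre against 28.8% of all genes and 21 (52.5%) in AAV-GFP against 20.7%, and Foxn1, Foxq1 and Foxs1 had one in AAV-Cre only, the state of 8.87%. The counts in AAV-Cre only, 2, 3 and 3 of 40, are near or below the shares of all genes.

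The family was divided by whether a member is known to be expressed in adult liver. This class was set from general knowledge, not from RNA measured in these mice, and with earlier results of these data known. Foxo6, Foxp2, Foxq1 and Foxm1 are borderline and were placed outside it. Foxf1, also found in hepatic stellate cells, was placed outside it too and was not treated as borderline. The class thus does not take in every member expressed in some cell type of the liver. It holds 13 genes: Foxa1, Foxa2, Foxa3, Foxo1, Foxo3, Foxp1, Foxp4, Foxk1, Foxk2, Foxj2, Foxj3, Foxn2 and Foxn3. None of the 13 had a peak within 1 kb or over the gene body in either list. Over all protein-coding genes, the shares within 1 kb were 23.9% in AAV-Cre and 16.6% in AAV-GFP. Over the body they were 28.8% and 20.7%. With only 13 genes, 0 is therefore less far from these shares than the values of the other members are. Of the other 27 members, 22 (81.5%) had a peak within 1 kb in AAV-Cre and 20 (74.1%) in AAV-GFP, and 24 (88.9%) and 21 (77.8%) had one over the body. Within 15 kb, 3 of the 13 liver-expressed members were marked in AAV-Cre and 1 in AAV-GFP, against 25 and 24 of the other 27. The shares over all genes in that window were 41.5% and 27.9%. A stretch of 30 kb centred on the start site shows the division in the map of peaks by gene.

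**Figure D1:**
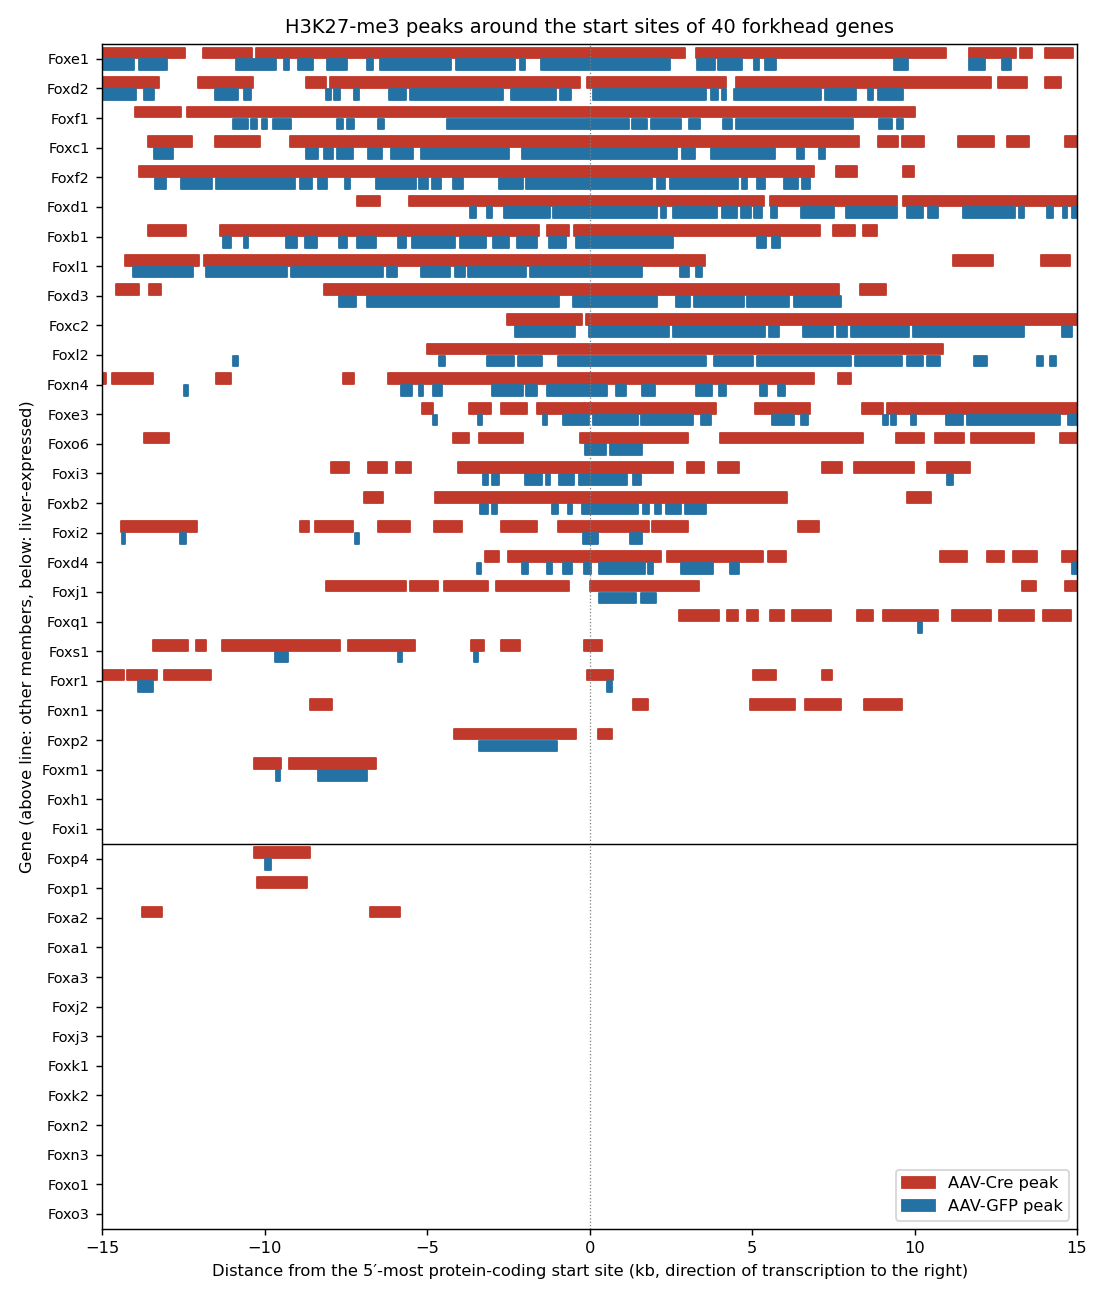
Peaks of AAV-Cre (red) and AAV-GFP (blue) from 15 kb before to 15 kb after the 5′-most protein-coding start site of each of the 40 forkhead genes (horizontal axis in kb, 1 row per gene, transcription to the right). The 27 other members stand above the line, ordered by the bases covered in AAV-Cre, and the 13 liver-expressed members below it, where only Foxp4, Foxp1 and Foxa2 have a peak.

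Among the liver-expressed members, the FOXA genes code for the pioneer factors of the liver. The nearest peak to Foxa1 was 232478 bp away in AAV-Cre and 277511 bp in AAV-GFP, the greatest distance of the family in both lists. For Foxa3 it was 33396 bp in AAV-Cre and 31390 bp in AAV-GFP. Foxa2 had its nearest peak 5832 bp upstream in AAV-Cre and 255637 bp away in AAV-GFP. The 2 AAV-Cre peaks by Foxa2 were chr2:148052801-148053734 (934 bp, 2.38-fold over the input background, q = 0.0573) and chr2:148060131-148060733 (603 bp, q = 0.0573), and neither reached a q-value of 0.05. The nearer one covers the annotated start of a microRNA gene, Gm27420, which is thus closer to it than Foxa2 is.

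The FOXO genes carry the transcriptional response to falling insulin. Foxo1 had its nearest peak 22131 bp away in AAV-Cre and 58344 bp in AAV-GFP, and Foxo3 24047 bp and 218780 bp. Both therefore had no peak in the 15 kb window in either list. Foxo6, the FOXO member known mainly from brain and placed here among the other members, had a 3320 bp AAV-Cre peak over its start site (8.12-fold, q = 1.27e-28) and a 655 bp AAV-GFP peak at the same place (3.24-fold, q = 2.13e-05). Its body was covered over 80.5% in AAV-Cre and 19.7% in AAV-GFP.

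Foxp1 and Foxp4 code for repressors with broad expression. Foxp1 had 1 AAV-Cre peak 8714 bp upstream of the start site at chr6:99529711-99531248 (1538 bp, 3.47-fold, q = 2.27e-05) and none nearer than 143239 bp in AAV-GFP. Foxp4 had an AAV-Cre peak 8605 bp upstream at chr17:47933250-47934988 (1739 bp, 4.91-fold, q = 2.63e-11) and a 190 bp AAV-GFP peak inside the same interval (2.06-fold, q = 0.706). That interval lies closer to a processed pseudogene, Gm5228, at 1102 bp, than to Foxp4. Foxp4 was the 1 liver-expressed member with a peak within 15 kb in both lists, and its AAV-GFP peak did not pass a q-value of 0.05. The 200 bases around the summits of these AAV-Cre peaks are given for Foxp1 and Foxp4, and for the nearer peak of Foxa2, because they are the sites where the liver-expressed members came closest to the mark. They are read from the plus strand of mm10, with CpG in capitals.
Foxa2, chr2:148053450-148053649, plus strand: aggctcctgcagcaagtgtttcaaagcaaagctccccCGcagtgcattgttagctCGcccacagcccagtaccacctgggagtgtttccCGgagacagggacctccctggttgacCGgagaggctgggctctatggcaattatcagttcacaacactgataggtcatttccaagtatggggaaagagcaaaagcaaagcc
Foxp1, chr6:99530746-99530945, plus strand: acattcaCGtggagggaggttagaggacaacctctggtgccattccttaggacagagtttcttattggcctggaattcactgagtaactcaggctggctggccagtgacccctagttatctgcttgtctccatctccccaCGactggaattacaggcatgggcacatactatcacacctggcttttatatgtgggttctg
Foxp4, chr17:47934538-47934737, plus strand: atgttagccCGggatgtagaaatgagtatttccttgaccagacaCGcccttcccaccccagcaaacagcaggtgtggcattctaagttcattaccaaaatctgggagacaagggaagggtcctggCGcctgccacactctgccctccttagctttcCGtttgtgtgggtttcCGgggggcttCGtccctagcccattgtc

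The 3 summits hold 4, 2 and 6 CpGs for Foxa2, Foxp1 and Foxp4. The median over all AAV-Cre summits was 3 in a window of this length, and 89.5% held at least 1, so the 3 sites are not set apart by their CpGs. TGTTTAC occurs in none of them and in 2.03% of all AAV-Cre summit windows.

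The remaining liver-expressed genes had no peak within 15 kb in either list. Foxk1 and Foxk2, which code for repressors of autophagy genes in fed cells, had their nearest peaks 40394 bp and 86894 bp away in AAV-Cre and 75212 bp and 102835 bp away in AAV-GFP. Foxj2 was the nearest to the limit, with a peak 15437 bp away in AAV-Cre and 15708 bp in AAV-GFP, close to the glucose transporter gene Slc2a3. Foxj3 stood 41605 bp and 46711 bp from its nearest peaks, Foxn2 32432 bp and 35246 bp, and Foxn3 135402 bp and 176846 bp, in AAV-Cre and AAV-GFP in that order. Over the 13 genes the median distance to the nearest peak was 32432 bp in AAV-Cre and 75212 bp in AAV-GFP. The medians over all protein-coding genes were 26725 bp and 58267 bp, so the liver-expressed members were not set closer to the mark than genes in general. The bodies of these genes are long, with a median of 57513 bp against 3752 bp for the other members and 17425 bp for all genes, and yet none of the 13 bodies was touched by a peak.

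At the other members the mark formed blocks. The median of all 27 was 14623 bases inside peaks within 15 kb of the start site in AAV-Cre and 3935 in AAV-GFP. Among them, the 20 genes marked within 1 kb in both lists had a median of 16637 covered bases within 15 kb of the start site in AAV-Cre (4881 to 27662) and 11307 in AAV-GFP (618 to 16275). Over all protein-coding genes the median was 0 in both lists. Over genes that had a peak within 1 kb in the same list it reached 5046 in AAV-Cre and 1766 in AAV-GFP. Such genes did not need a peak in the other list, so the selection was less strict than for the 20 members. Among them are 1672 genes marked in AAV-Cre only, while Foxp2 (4166 bases) and Foxs1 (8625 bases), in that state, were left out of the 20. A comparison of the 20 members with genes marked in both lists was not made. When peaks less than 1 kb apart were joined, the block at the start site had a median length of 16591 bp in AAV-Cre, made of 2.5 peaks, and 10732 bp in AAV-GFP, made of 8 peaks. The AAV-GFP blocks were thus cut into more and shorter pieces. The whole gene body lay inside peaks for 14 of the 20 genes in AAV-Cre and for 2, Foxb2 and Foxl2, in AAV-GFP. A start site lay inside a peak for 19 of them in AAV-Cre and 16 in AAV-GFP. For each of the 20 genes, the strongest of all peaks within 15 kb or over the body was ranked by p-value within its list. That peak was in the top 10% for 18 genes in AAV-Cre and 17 in AAV-GFP, and in the top 1% for 10 and 9. Foxl1 is counted in the AAV-GFP top 1% through the Foxc2 peak 9325 bp away. Its own AAV-GFP start-site peak stood 4.04% from the top. Other marked genes were not counted in these ways, so the counts of whole bodies, start sites and ranks have no comparison.

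The 6 members with the most covered bases in AAV-Cre pattern organs other than the liver. Foxe1, a thyroid factor, had 27662 covered bases in AAV-Cre and 15465 in AAV-GFP, and 56 and 86 of the 21938 genes had more in the respective lists. Its joined AAV-Cre block ran over 40487 bp. Foxd2, expressed in kidney and other mesoderm, had 25280 and 16275, the most of any member in AAV-GFP. Foxf1, a factor of the mesenchyme around gut and lung that is also found in hepatic stellate cells, had 23813 and 13721. Foxc1, which acts in the eye and in mesoderm, had 23696 and 13124, Foxf2, of palate and gut mesenchyme, 21784 and 14596, and Foxd1, of the kidney stroma, 20884 and 13337. The plot of covered bases shows that the order differed between the lists: each of these 6 genes had at least 13124 covered bases in AAV-GFP, but Foxl1, Foxc2 and Foxd3 exceeded Foxf1, Foxd1 and Foxc1 there.

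**Figure D2:**
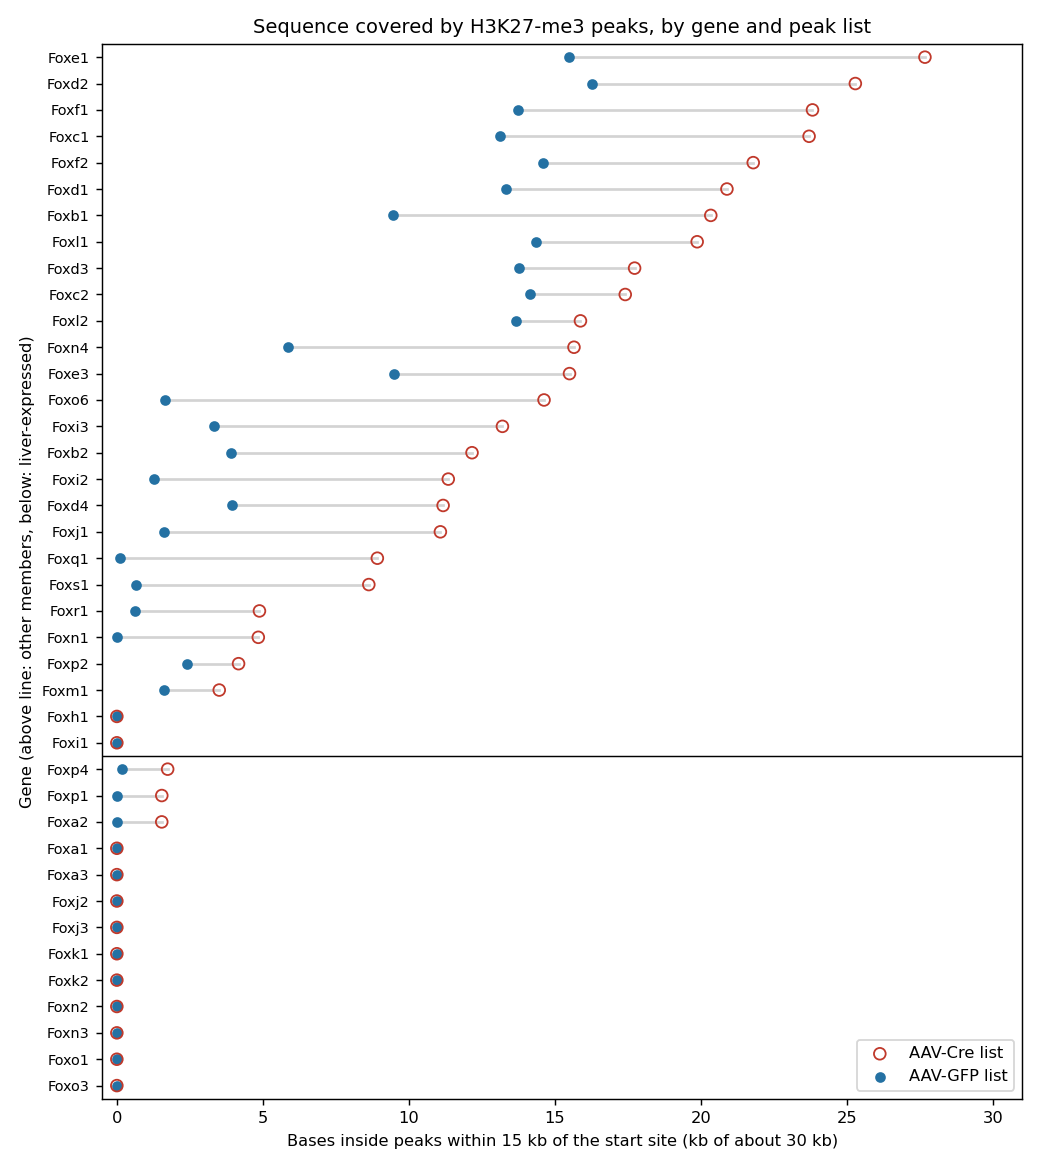
Bases inside peaks within 15 kb of the start site (kb) for each of the 40 forkhead genes, with AAV-Cre as open red circles and AAV-GFP as filled blue circles joined by a grey line. Each circle is 1 pooled list, without error. The AAV-Cre value is the higher or equal one for every gene, and the 13 liver-expressed genes lie between 0 and 1739 bases.

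The next genes in order were also developmental. Foxb1, of the hypothalamus and mammillary bodies, had 20331 covered bases in AAV-Cre and 9442 in AAV-GFP. Foxl1, of gut mesenchyme, had 19865 and 14343, Foxd3, which maintains neural crest and pluripotent cells, 17723 and 13751, and Foxc2, needed for lymphatic vessels, 17403 and 14157. At Foxl2, the ovarian granulosa cell factor, 1 AAV-Cre peak of 15870 bp (12.6-fold, q = 1.05e-82) overlapped 9 AAV-GFP peaks, and AAV-GFP had 13 peaks with 13663 covered bases in the whole window. This was the smallest ratio of AAV-Cre to AAV-GFP cover in the family, 1.16. Foxn4, a retina and spinal cord factor, had 15648 and 5862, and its 13094 bp AAV-Cre peak overlapped 12 AAV-GFP peaks. Foxe3, of the lens, had 15495 and 9489.

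Other members had a wide cover in AAV-Cre and a smaller one in AAV-GFP, at most 1640 bases for Foxo6, Foxi2 and Foxj1. Foxo6 had 14623 covered bases in AAV-Cre and 1640 in AAV-GFP, and Foxi2 11345 and 1265. At its start site Foxi2 had a peak of 468 bp in AAV-GFP (q = 0.0222) and one of 2798 bp in AAV-Cre (q = 0.0269). The AAV-GFP peak stood 39.1% from the top of its list and the AAV-Cre peak 86.9%. Foxj1, the master regulator of motile cilia, had 11075 and 1600. Its strongest AAV-Cre peak began 9 bp from the start site (3358 bp, 13.2-fold, q = 2.77e-61) and contained the AAV-GFP peak of 1127 bp (3.83-fold, q = 7.61e-13). Foxi3, of ectodermal organs, had 13199 and 3339, Foxb2 12158 and 3907, and Foxd4 11168 and 3935. In AAV-GFP, peaks still covered 100% of the Foxb2 body and 81.6% of the Foxd4 body. All 6 genes in this group nevertheless had a peak within 1 kb in both lists. Foxr1 was the weakest of the 20, with 4881 and 618 covered bases and an AAV-GFP peak of 152 bp 534 bp from the start site.

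Over the 25 members with covered bases in both lists, the median ratio of AAV-Cre to AAV-GFP cover was 2.15 (1.16 to 74.3), and over the 20 marked within 1 kb in both lists 1.80 (1.16 to 8.97). Over the 5719 protein-coding genes with covered bases in both lists it was 3.77. The forkhead genes thus had a ratio below that of genes in general on this measure. In the summed windows of the 40 members, 1168947 bp in all, 30.1% of bases lay inside an AAV-Cre peak and 14.4% inside an AAV-GFP peak, a ratio of 2.09 beside 4.93 for the genome. Of the covered AAV-GFP bases, 98.9% lay inside AAV-Cre peaks, and of the covered AAV-Cre bases 47.3% lay inside AAV-GFP peaks. By peak, 202 of 209 AAV-GFP peaks (96.7%) and 48 of 137 AAV-Cre peaks (35.0%) overlapped the other list by at least 1 bp, against 86.4% and 24.2% in the whole lists. The window limits this ratio at the best covered genes, since Foxd2 already had 54.2% of its window covered in AAV-GFP.

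The position of the mark relative to the start site is shown in the profile over the other members. At the start site itself, 74.1% of the 27 genes were inside an AAV-Cre peak and 59.3% inside an AAV-GFP peak. The highest shares were 77.8% in AAV-Cre, reached at 2500 and 2250 bp upstream and again at 250 and 500 bp downstream, and 66.7% in AAV-GFP, at 500 and 1000 bp downstream. At 5 kb upstream and downstream, AAV-Cre still covered 44.4% and 59.3% of the genes and AAV-GFP 25.9% and 22.2%. At 15 kb the shares were 14.8% and 25.9% in AAV-Cre, and 7.41% on each side in AAV-GFP. Over all genes the profile rose to 19.0% in AAV-Cre and 10.1% in AAV-GFP, both at 250 bp downstream. The forkhead profile is both higher and broader than that of all genes.

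**Figure D3:**
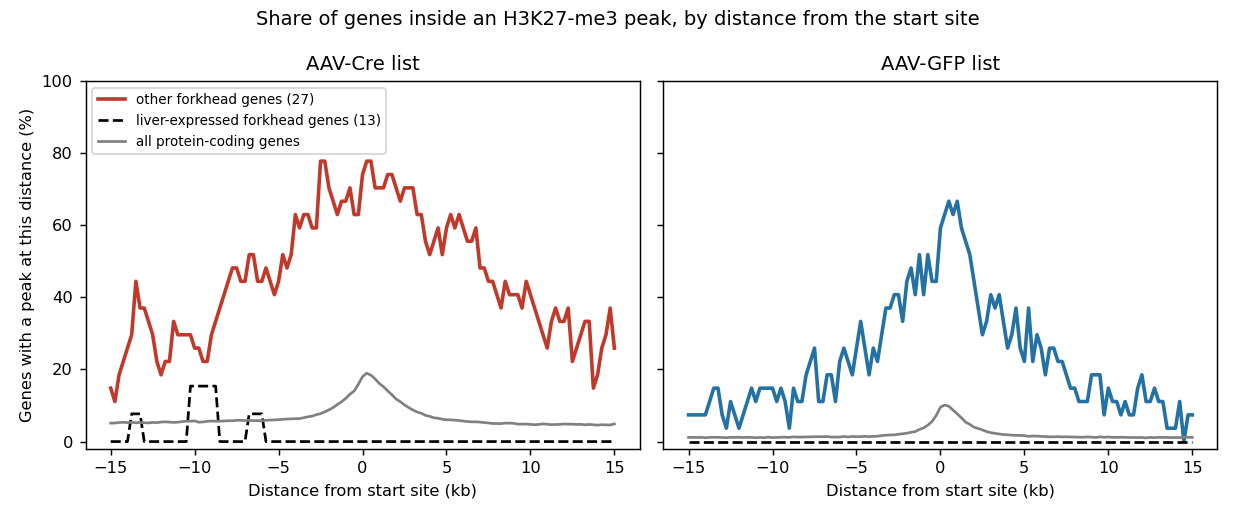
Share of genes (%) inside a peak at each distance from the start site (kb, steps of 250 bp, transcription to the right) in AAV-Cre (left) and AAV-GFP (right). The coloured line is the 27 other forkhead genes, the dashed line the 13 liver-expressed forkhead genes and the grey line all protein-coding genes, and the coloured line peaks at 77.8% in AAV-Cre and 66.7% in AAV-GFP while the dashed line is at 0 around the start site.

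In 5 of the other members, no peak lay within 1 kb of a start site in either list. Foxh1, a partner of Nodal signalling, had its nearest peak 48118 bp away in AAV-Cre and 48311 bp in AAV-GFP. Foxi1, of kidney intercalated cells and the inner ear, had its nearest at 107085 bp and 184945 bp. These were the 2 members outside the liver-expressed class with no peak within 15 kb. Foxm1, a driver of mitosis, had an AAV-Cre peak 6567 bp upstream at chr6:128353726-128356400 (2675 bp, 11.7-fold, q = 1.01e-56) that overlapped an AAV-GFP peak of 1498 bp (5.80-fold, q = 1.75e-21). That peak covers the start of an antisense RNA, Gm26770, and lies on the side of Tulp3, so it is closer to a neighbour than to Foxm1. Which gene the mark there belongs to was not tested.

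Foxn1, the factor of thymic epithelium and hair follicles, was free of peaks within 100519 bp in AAV-GFP. In AAV-Cre 10 peaks of 482 to 1399 bp lay over its body and around its start site, the nearest 1326 bp away, and they covered 30.5% of the body. Their folds were 2.37 to 3.78, and the strongest of them stood 21.1% from the top of the list. The 5 peaks at the far end of the body lie closer to the start of Unc119. Foxq1, known from hair and stomach mucous cells, had 10 AAV-Cre peaks beginning 2747 bp downstream of the start site, with 8917 covered bases, and 1 AAV-GFP peak of 120 bp (q = 0.182). Its ratio of cover, 74.3, was the highest of the family and rests on that 1 short AAV-GFP peak. All 10 AAV-Cre peaks lie closer to the starts of A530084C06Rik or Gm11377 than to that of Foxq1.

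Foxp2 and Foxs1 were marked within 1 kb in AAV-Cre only. At Foxp2, a brain factor linked to speech, the AAV-Cre peak at chr6:14897175-14900914 (3740 bp, q = 6.36e-40) ended 435 bp before a start site, and the AAV-GFP peak inside it at chr6:14897944-14900337 (2394 bp, 4.25-fold, q = 1.78e-10) ended 1012 bp before it. The lists thus differ at Foxp2 in how far the peak reached across the 1 kb limit, and both have it. A second AAV-Cre peak of 426 bp lay 256 bp from the start site with no AAV-GFP counterpart. At Foxs1, expressed in pericytes and neural crest, a 547 bp AAV-Cre peak lay over the start site (2.51-fold, q = 0.0230), and the nearest AAV-GFP peak was 3431 bp away. The larger AAV-Cre peaks upstream of Foxs1, up to 3608 bp wide, lie nearer to Dusp15.

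CpG content was compared between the classes over 500 bp on either side of the start site, as the ratio of observed to expected CpG. The liver-expressed members had a median of 0.864 (0.232 to 1.17) and the 20 members marked in both lists one of 0.766 (0.520 to 0.993), while all protein-coding genes had 0.571. Of the start sites with a ratio of 0.6 or more, 0 of 10 liver-expressed members had a peak within 1 kb in either list, while 19 of 20 other members (95%) had one in AAV-Cre and 18 (90%) in AAV-GFP. Among all genes of that CpG class the shares were 23.5% and 19.3%. The contrast between the classes was thus present among start sites with a ratio of 0.6 or more. Inside that group the liver-expressed members ran from 0.770 to 1.17 and the others from 0.628 to 0.993. The genes were not matched on CpG content, and a part of CpG content in the contrast was not tested. Of the 5 other members with no peak within 1 kb, Foxh1 (0.293), Foxi1 (0.292), Foxn1 (0.180) and Foxq1 (0.243) had CpG-poor start sites, and Foxm1 (0.883) did not. Below a ratio of 0.4, 1 of 5 other members, Foxs1, was marked in AAV-Cre, and 17.8% of all genes were.

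**Figure D4:**
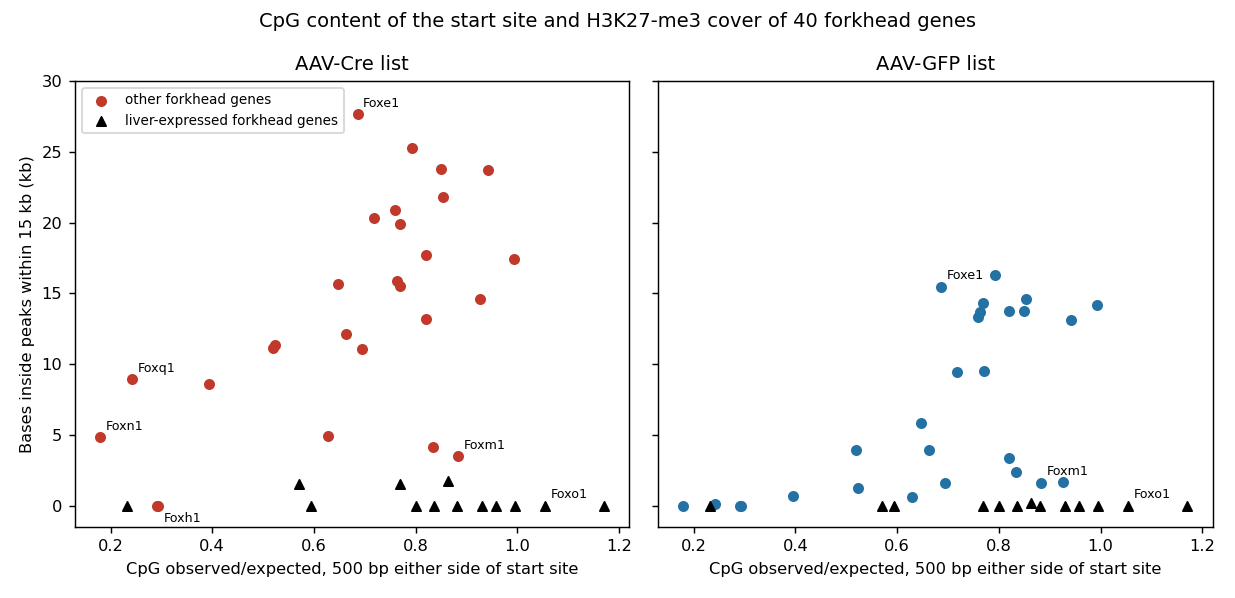
Bases inside peaks within 15 kb (kb, vertical) against the ratio of observed to expected CpG over 500 bp on either side of the start site (horizontal) for the 40 forkhead genes, in AAV-Cre (left) and AAV-GFP (right). Circles are the 27 other members and black triangles the 13 liver-expressed members, which span 0.232 to 1.17 on the horizontal axis and stay at or below 1739 bases.

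By subfamily, both Foxb, both Foxc, all 4 Foxd, both Foxe, both Foxf and both Foxl genes had a peak within 1 kb in both lists, and the 3 Foxa and both Foxk genes had none in either. The divided subfamilies were Foxo, where Foxo6 alone was marked, Foxj, where Foxj1 alone was, and Foxn, where Foxn4 alone was, in both lists. Foxi was divided as well, with Foxi2 and Foxi3 marked and Foxi1 not. Foxp was divided in AAV-Cre, where Foxp2 was marked and Foxp1 and Foxp4 were not.

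Some members lie next to each other, so their peaks are not separate measurements. On chromosome 8, Foxc2 starts 31785 bp after Foxf1 and Foxl1 11769 bp after Foxc2. Foxc2 and Foxl1 share 1 AAV-Cre peak of 15434 bp, chr8:121116063-121131496, and Foxf1 lies inside a separate AAV-Cre peak of 22411 bp. Over 96259 bp that span the 3 genes with 25 kb on each side, AAV-Cre covered 49.5% and AAV-GFP 29.4%, and the widest AAV-GFP peak was 5588 bp. The stretch between Foxf1 and Foxc2 holds Mthfsd and was free of peaks over its middle part in both lists, as the maps of the neighbouring genes show. On chromosome 4, Foxd2 and Foxe3 start 17140 bp apart, and 58.2% of 69732 bp was covered in AAV-Cre and 28.4% in AAV-GFP. On chromosome 13, Foxf2 starts 69682 bp after Foxq1 and Foxc1 180817 bp after Foxf2. There 20.2% of 306343 bp was covered in AAV-Cre and 9.15% in AAV-GFP, with widest peaks of 20779 and 4778 bp, and the cover was concentrated at Foxf2 and Foxc1.

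**Figure D5:**
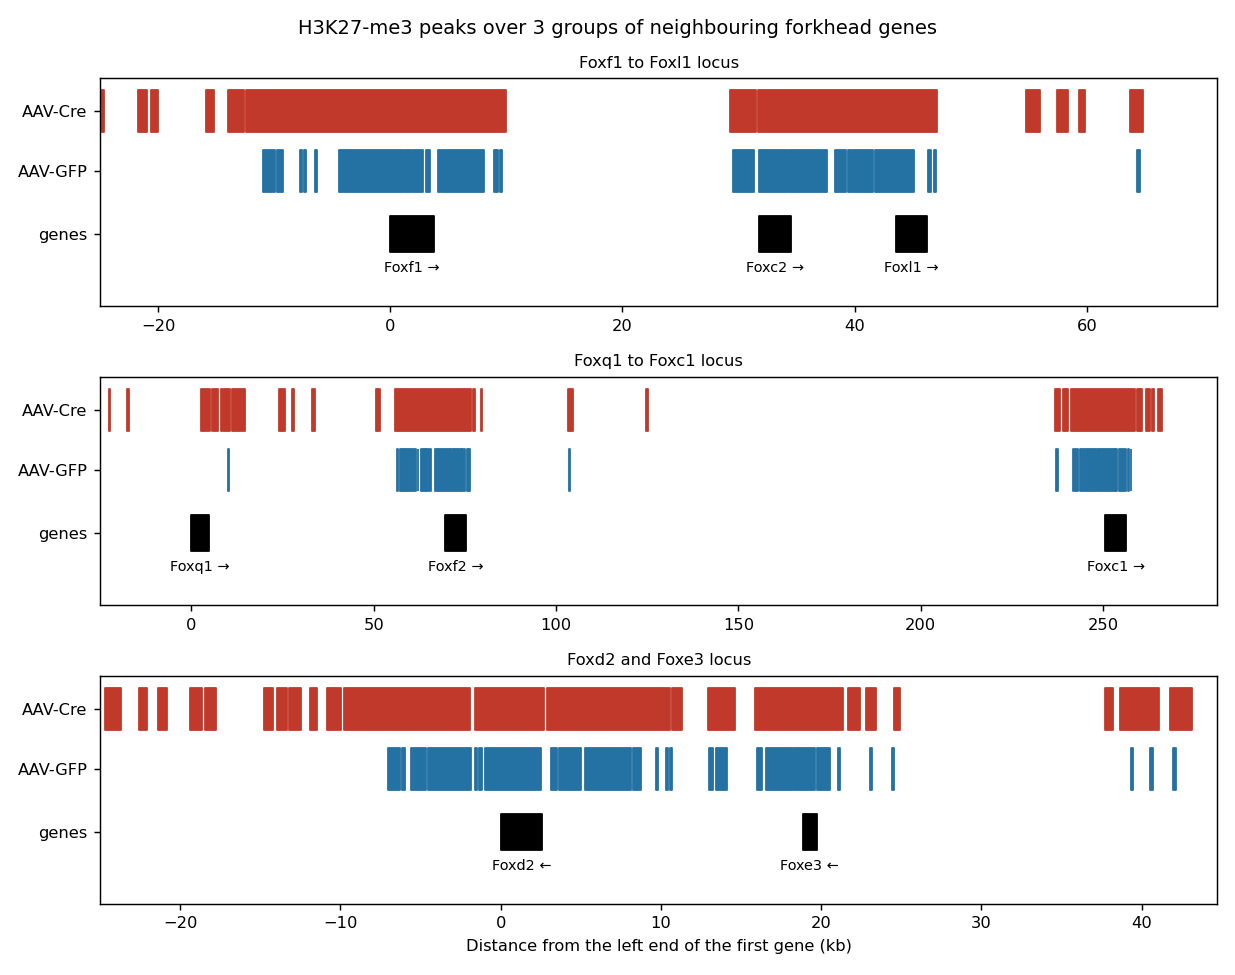
Peaks of AAV-Cre (red) and AAV-GFP (blue) and the forkhead genes (black, with the direction of transcription) over 3 groups of neighbouring forkhead genes, plotted by distance from the left end of the first gene (kb). The widest red blocks lie over Foxf1 (22411 bp), Foxf2 (20779 bp), Foxc1 (17510 bp), and Foxc2 and Foxl1 (15434 bp), and the blue peaks fall inside nearly the same stretches.

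Genes that work with the liver forkhead factors were counted in the same way. Of 16 transcription factors that act with FOXA in liver, 2 had a peak within 1 kb in AAV-Cre, Nr2f2 and Onecut2, and 0 in AAV-GFP, against 23.9% and 16.6% of all genes. Onecut2, a liver and bile duct factor, had that peak 991 bp away, and its nearest AAV-GFP peak was 267144 bp away. Within 15 kb, 6 of the 16 were marked in AAV-Cre, beside 41.5% of all genes: Gata4, Nr2f2, Onecut1, Onecut2, Hhex and Cebpb. In AAV-GFP, Gata4 and Nr2f2 were marked, beside 27.9% of all genes. A peak in AAV-Cre only, as at Onecut1, Onecut2, Hhex and Cebpb, was the state of 14.8% of all genes in this window. Gata4, an endoderm and heart factor that in adult liver is found mainly in endothelial and stellate cells, had 13316 covered bases in AAV-Cre and 8636 in AAV-GFP. Onecut1 had 8984 in AAV-Cre and 0 in AAV-GFP. Hnf4a, Cebpa and Nr1h4 (FXR) had their nearest peaks between 65356 and 118546 bp away in AAV-Cre and between 66707 and 120804 bp in AAV-GFP.

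Of 20 genes of insulin signalling to FOXO and of FOXO targets, Sgk1, a kinase that phosphorylates FOXO, was the 1 gene with a peak within 1 kb, in both lists. Such a peak was found at 23.9% of all genes in AAV-Cre and 16.6% in AAV-GFP. Sgk1 had 3094 covered bases in AAV-Cre and 326 in AAV-GFP. Within 15 kb, Sgk1 and Igfbp1 were marked in both lists, and Irs1, Akt1, Sirt1 and Trib1 in AAV-Cre only, the state of 14.8% of all genes. The Sirt1 peak lay 11997 bp from a start site, but no covered base fell within 15 kb of its 5′-most start site. The gluconeogenic FOXO targets G6pc and Pck1 had their nearest peaks 102194 bp and 31673 bp away in AAV-Cre. The nearest AAV-GFP peaks of these 2 genes were at 104594 bp and 70253 bp. The 6 of 20 genes marked within 15 kb in AAV-Cre and the 2 of 20 in AAV-GFP are set beside 41.5% and 27.9% of all genes.

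Marker genes of liver cell types were used to see which cells the lists could reflect. None of 14 hepatocyte markers had a peak within 1 kb in either list, and Cyp2e1, a cytochrome P450 of the hepatocytes around the central vein, had one within 15 kb in both. Of 24 markers of endothelial, stellate, Kupffer and bile duct cells, 13 had a peak within 1 kb in AAV-Cre and 9 in AAV-GFP, beside 23.9% and 16.6% of all genes, and 18 and 11 had one within 15 kb, beside 41.5% and 27.9%. By cell type, peaks within 1 kb in AAV-Cre and AAV-GFP were found at 2 and 2 of 6 endothelial, 5 and 4 of 6 stellate, 1 and 0 of 6 Kupffer and 5 and 3 of 6 bile duct markers. The part of each cell type in the forkhead peaks was not tested.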

How the data were processed

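H3K27-me3 was measured by ChIP-seq in fasted livers of JMJD3-floxed mice given AAV-TBG-Cre or AAV-GFP, as 2 H3K27-me3 libraries and 2 inputs for each virus, 8 in all, and groups were taken from the labels. The authors mapped reads to mm10 and called peaks against input with MACS in the AQUAS histone pipeline, pooling replicates into 1 list per virus. The submitters' processing notes name BWA 0.7.13, SAMtools 1.2 and Picard 1.126. The deposited lists give each peak's position and summit, its fold enrichment (a ratio over the local input background) and the −log10 of its p-value and of its q-value. Folds were not compared between lists. The lists hold no counts, so depth and its precision are unknown.

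Peaks were joined to GENCODE M21 genes on GRCm38 (mm10) by an overlap of at least 1 bp. Distances and the 1 kb and 15 kb windows used all start sites of basic protein-coding transcripts. Covered bases and profiles used the 5′-most of them. All peaks lay on 21 chromosomes and 0 ran beyond a chromosome end. Python 3.11.15, numpy 2.4.6, pysam 0.24.0 and matplotlib 3.10.9 were used. The gene calls were tested on simulated peaks, where they equalled a direct search for 100% of 1500 genes.

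Every member was accounted for. Described in full were the liver-expressed members, those marked in 1 list only, those with no peak within 15 kb, the 6 with the most covered bases in AAV-Cre and those within 100 kb of each other. Of the 15 listed hepatocyte markers, Tf was not found under that symbol. The members, classes and lists were chosen with earlier results of these data known. Alternatives were q-value thresholds, equal numbers of peaks, a minimum width, other start sites and windows, the class of 4 borderline members, and a minimum body cover. With 1 list per group, no test was made.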

Additional observations from a re-analysis of the deposited data

How the results depend on the processing

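Of 104 values recomputed for 17 results under 8 alternatives, 83 equalled the value reported or, for a count, lay within 1.5 times of it. The count of 0 liver-expressed members within 1 kb held in both lists under all alternatives but 1. With Foxo6, Foxp2, Foxq1 and Foxm1, which are borderline, counted as liver-expressed, it rose to 2 in AAV-Cre (Foxo6 and Foxp2) and 1 in AAV-GFP (Foxo6), the count within 15 kb to 7 in AAV-Cre and 5 in AAV-GFP, and the median cover of the other members was 15648 bases in AAV-Cre and 9442 in AAV-GFP, in place of 14623 and 3935. With windows of 5 and 50 kb in place of 1 and 15 kb, 10 liver-expressed members in AAV-Cre and 5 in AAV-GFP had a peak in the wider window, and 6 members had one in AAV-Cre only. At a q-value of 0.05 or lower the liver-expressed count within 15 kb was 0 in AAV-GFP, and the median cover of the other members 14506 and 3184 bases in AAV-Cre and AAV-GFP. At 0.01 these were 0, 14135 and 3180, and 1 member (Foxp2) was marked within 1 kb in AAV-Cre only. With the 34586 strongest peaks of each list that number was also 1, and the median AAV-Cre cover was 12158 bases. In that setting 20 members were marked within 1 kb in each list. The AAV-Cre start-site peak of Foxi2 was not among the strongest peaks, so Foxi2 was then marked within 1 kb in AAV-GFP only. With peaks of at least 300 bp, the liver-expressed count within 15 kb was 0 in AAV-GFP, the median AAV-GFP cover 2841 bases, and 5 members were marked within 15 kb in AAV-Cre only. No paired analysis was possible because each list pools both replicates of its virus, and leaving out each mouse in turn was not run for the same reason. Depth limits every absence: a region without a peak may hold the mark below what these pooled libraries could call.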
